A study of Mus musculus with 19 samples.

Results

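Sensory neurons of the dorsal root ganglion (DRG) keep their class identity through a small set of transcription factors. Isl1, Isl2, Pou4f1 (Brn3a), Prrxl1 (Drg11) and Tlx3 are shared by broad groups of sensory neurons, Prdm12 is a factor of the nociceptor lineage, Runx1 marks nociceptors and is required for the non-peptidergic class, and Runx3 marks proprioceptors. The Runx proteins bind DNA with the partner Cbfb, and Isl1 and Isl2 work through LIM domain cofactors of the Ldb family. Runx2 and Pou4f2 (Brn3b) are the relatives of these genes that are best known from bone and from retinal ganglion cells.

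The genes described here are Runx1, Runx2, Runx3, Isl1, Isl2, Pou4f1, Pou4f2, Prdm12, Tlx3 and Prrxl1, chosen by name. All 10 had a row among the 12629 genes of the expression table.

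RNA-seq was performed on neurons sorted for GFP by FACS from the left C5-C8 DRGs. The neurons of 5 GFP-naive and 4 GFP-crush libraries had received AAV5-fGFP, and those of 6 α9k1-naive and 4 α9k1-crush libraries AAV5-α9-V5 together with AAV5-kindlin1-GFP. In the crush groups the dorsal roots were crushed when the virus was injected, and ganglia were collected after 8 weeks in every group. All 4 groups therefore share the injection, the AAV5 capsid, dissociation and the GFP sort. The GFP and kindlin1-GFP transgenes were driven by CMV promoters and α9-V5 by a CAG promoter. The α9 vector carried a V5 tag and no GFP, so the sort selected on GFP alone and not on α9. The labels name C57BL/6 mice and papain, whereas the methods of the study name adult male Lewis rats and trypsin, and reads were aligned to the mouse genome in both accounts. The study calls the replicates biological, but the labels do not say whether they came from separate animals, so p-values measure the spread between these libraries. In bulk samples fewer cells of a class and less RNA per cell cannot be told apart.

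Libraries held between 36.4 M and 87.6 M read pairs, and 47.5% to 54.1% of reads were aligned. The mismatch rate to the mouse genome was 3.87% to 4.05%, and the species of the reads was not tested. Fermt1, the gene of kindlin-1, was at 5.18 to 7.73 in the α9k1 libraries and at 0.42 to 0.80 in the GFP libraries, whereas Itga9, the gene of α9 integrin, was at 2.38 to 7.51 and 0.90 to 2.40, so that its ranges touched. These reads can come from the transgene or from the endogenous gene. All values are log2 expression normalized by the authors for gene length and depth. The median over all genes lay between 4.30 and 4.48 in the libraries, and the lowest value was -0.77. Runx2, Runx3 and Pou4f2 lay below the median in every library, at most at 3.20, 3.86 and 3.36. Their fold changes and distances to other genes are therefore those of low values. The neuronal markers Tubb3, Snap25, Stmn2 and 7 others all had a row, and so did all 12 glial markers, which were not absent from the sorted neurons. Their summed level was at a log2 of 13.5 to 13.9 in GFP-naive, 12.5 to 12.9 in α9k1-naive, 13.6 to 14.2 in GFP-crush and 12.8 to 13.7 in α9k1-crush.

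Each group comparison was fitted both with and without 3 covariates taken from the library metrics, because the third covariate separated α9k1-crush (2.55 to 4.49) from all other libraries (-5.03 to 1.59). The fit with the covariates follows the study's methods, and a gene was called at an adjusted p under 0.1 with limma over all 12629 genes. Where the call of one of the 10 genes differed between the fits, both values are given, values of other genes are from the fit with covariates, and an effect of α9k1-crush cannot be fully told apart from what the metrics of these 4 libraries share.

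The Runx genes were examined first for what their upstream start sites share, as these factors are known to act on their own promoters. The RUNX letters TGTGGT or TGCGGT were searched on both strands of the RefSeq promoters (GRCm38.p6, 250 bases before to 50 after each start), of which 12 belonged to the 10 genes. They were present in 5 of the 12 promoters and in 22.4% of all 32851. A pair of them in the form ACCACANNACCACA stood at the upstream start of each Runx gene and at 7 of all promoters (0.0213%); this form was chosen after the first matches had been seen. The 30 bases around it are shown with the paired letters in capitals, written 5′ to 3′ on the strand of the gene, since the pair and its spacer were the same in all 3 genes.

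Runx1, chr16:92826025-92826054, minus strand: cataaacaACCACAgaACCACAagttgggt

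Runx2, chr17:44814583-44814612, minus strand: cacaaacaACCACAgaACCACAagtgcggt

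Runx3, chr4:135120503-135120532, plus strand: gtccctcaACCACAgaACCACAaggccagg

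In Runx1 and Runx2 the first capital stands 28 and 23 bases after the start and the window lies within an exon of the GENCODE annotation, whereas in Runx3 it stands at position -134 from the start, outside of any exon of the gene. A match describes these letters only and shows no binding. All sequences and positions given here are those of the mouse genome. If the animals were rats, their own sequence can differ, which was not examined. Runx1 and Runx3 each have a downstream start in addition, at which no RUNX letters were found, and the expression values count all transcripts of a gene together, so that the starts cannot be told apart. The 250 bases before the upstream start of Runx3, whose own level was highest in α9k1-crush, are given to show the pair in its surroundings (chr4:135120395-135120644, plus strand, RUNX letters in capitals).

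Runx3 upstream: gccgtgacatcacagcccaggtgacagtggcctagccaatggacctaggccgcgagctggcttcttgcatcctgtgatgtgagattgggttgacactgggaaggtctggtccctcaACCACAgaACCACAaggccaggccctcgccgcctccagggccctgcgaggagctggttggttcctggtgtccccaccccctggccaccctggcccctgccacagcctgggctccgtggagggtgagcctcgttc

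The homeodomain letters TAATTA were in none of the 12 promoters and in 5.29% of all promoters. The promoters of the 10 genes had a median GC content of 65.5%, against 52.7% over all promoters, with the upstream starts of Runx1 (45%) and Runx2 (45.3%) at the low end and Pou4f1 (78.3%) at the high end. In the mouse genome Runx1 lies on chromosome 16, Runx2 on 17, Runx3 on 4, Isl1 on 13, Isl2 on 9, Pou4f1 and Prrxl1 on 14, Pou4f2 on 8, Prdm12 on 2 and Tlx3 on 11. In the annotation, antisense genes overlap Runx1, Runx2, Runx3, Isl2 and Prdm12, and Supt3 overlaps Runx2. The kit does not mark strand, so their reads cannot be told apart where exons overlap.

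**Figure D1:**
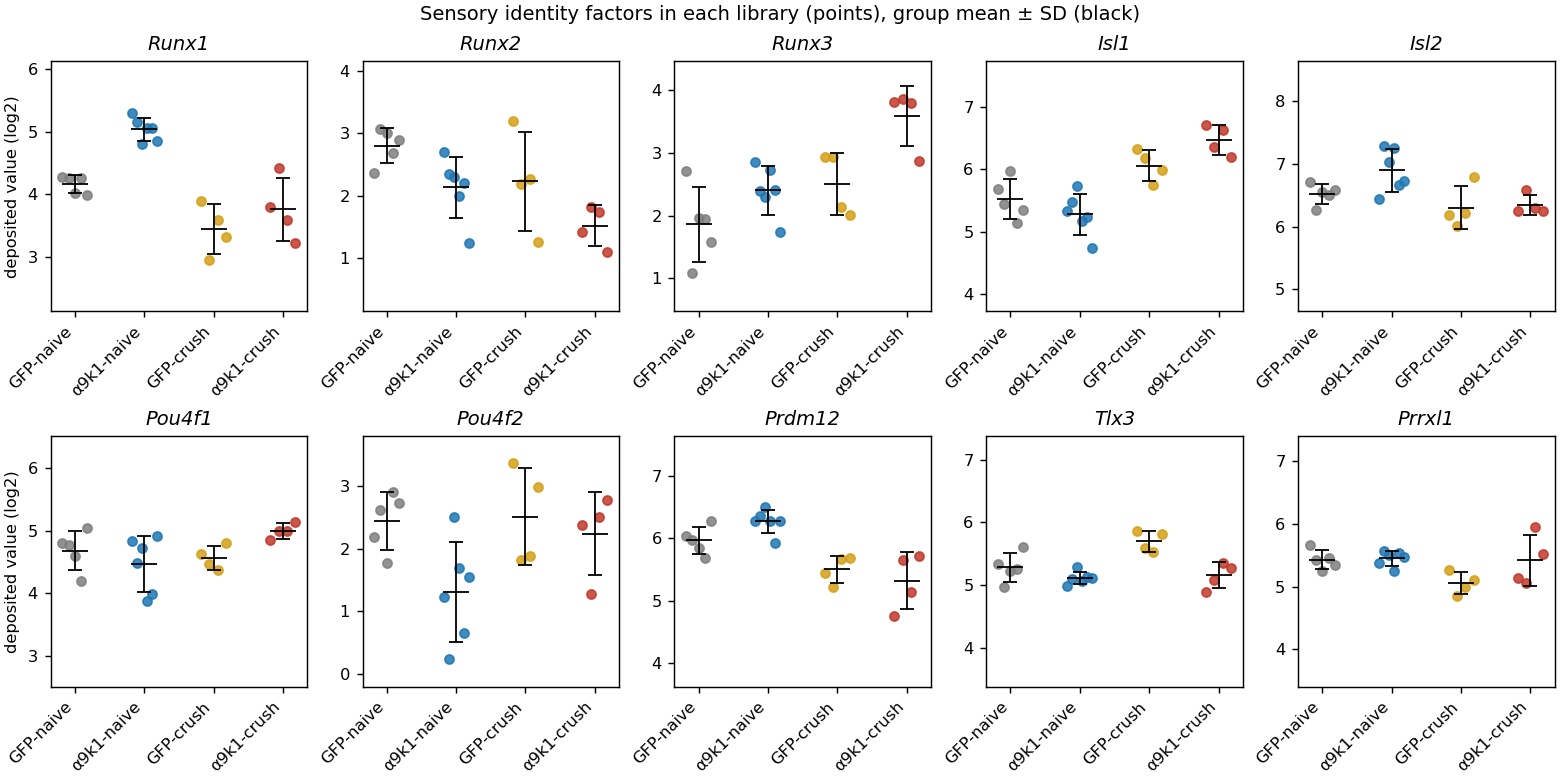
Deposited log2 expression (y axis, the same span of 4 in every panel) of the 10 identity factors in the 4 groups (x axis), with 1 point per library and the group mean ± SD in black. Runx1 stands highest in α9k1-naive, where the 6 libraries lie between 4.81 and 5.30, and Runx3 and Isl1 stand highest in α9k1-crush.

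Runx1 was the 1 member called higher with α9k1 in the absence of crush. It was at 4.27, 4.26, 4.01, 4.26 and 3.99 in GFP-naive, between 4.81 and 5.30 (median 5.06) in α9k1-naive, at 3.90, 2.96, 3.60 and 3.31 in GFP-crush and at 3.79, 4.42, 3.59 and 3.22 in α9k1-crush. The α9k1-naive libraries were all above all GFP-naive libraries, all libraries of the 2 naive groups were above all GFP-crush libraries, and α9k1-crush lay below α9k1-naive and overlapped GFP-naive. Without crush Runx1 was 0.88 ± 0.26 (SE) higher on the log2 scale with α9k1, at an adjusted p of 0.024, and the value without covariates was the same to 2 decimals (0.88, adjusted p = 0.00103). After crush the α9k1 effect was 0.42 ± 0.56 (adjusted p = 0.883). The difference between these effects was -0.46, with a 95% interval of -1.59 to 0.67 that includes 0.

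Runx1 was lower after crush with both vectors, its mean being 3.44 ± 0.40 (SD, n = 4) in GFP-crush and 3.76 ± 0.50 (n = 4) in α9k1-crush against 4.16 ± 0.14 (n = 5) and 5.04 ± 0.18 (n = 6) in the naive groups. With the covariates the fitted changes were -0.62 ± 0.26 in GFP (adjusted p = 0.118) and -1.08 ± 0.46 in α9k1 neurons (adjusted p = 0.193), which did not pass the threshold. The change in GFP neurons passed without GFP-crush replicate 1, α9k1-crush replicate 2 or α9k1-crush replicate 4 (adjusted p = 0.0745, 0.0516 and 0.062), and that in α9k1 neurons without α9k1-crush replicate 2 (adjusted p = 0.0622). Without covariates both passed (adjusted p = 0.017 and 3.35e-05), and in each of the 19 fits without covariates that left out 1 library they passed as well. The 2-sided exact permutation test of the deposited values gave p = 0.00794 and p = 0.00476, adjusted to 0.0529 and 0.0381 over the 40 tests of 10 genes in 4 comparisons, the smallest p these group sizes allow.

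Runx3, the proprioceptor factor, had its highest values in α9k1-crush. Its values were 2.72, 1.08, 1.96, 1.95 and 1.58 in GFP-naive, 1.73 to 2.85 (median 2.40) in α9k1-naive, 2.94, 2.94, 2.14 and 2.01 in GFP-crush, and 3.82, 3.86, 3.80 and 2.87 in α9k1-crush. All α9k1-crush libraries were above all α9k1-naive libraries, and 3 of the 4 were above all GFP-crush libraries. In GFP neurons crush raised Runx3 by 1.26 ± 0.30 (adjusted p = 0.0135) in the fit with covariates, but by 0.65 (adjusted p = 0.137) in the fit without, where GFP-crush and GFP-naive overlapped.

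The comparison of Runx3 between α9k1-crush and GFP-crush turned with the covariates. The fitted difference was -0.22 ± 0.65 (adjusted p = 0.957, 95% interval of -1.60 to 1.15) with them and 1.08 ± 0.32 (adjusted p = 0.0101) without them. The exact permutation test of the deposited values gave p = 0.0857, adjusted to 0.163. The library α9k1-crush replicate 4 stood apart from the other 3 at 2.87. Without it the difference was 0.00 with the covariates (adjusted p = 0.999) and 1.32 without (adjusted p = 0.00336). Between α9k1-crush and α9k1-naive the sign did not turn, at 0.98 ± 0.53 (adjusted p = 0.307) with and 1.19 ± 0.30 (adjusted p = 0.00304) without covariates.

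Runx2 was lower in α9k1-naive than GFP-naive, whereas Runx1 was higher. It was at 2.36, 3.07, 3.0, 2.68 and 2.89 in GFP-naive, 1.25 to 2.70 (median 2.25) in α9k1-naive, 3.20, 2.19, 2.28 and 1.26 in GFP-crush and 1.43, 1.82, 1.74 and 1.11 in α9k1-crush. The naive groups overlapped through 1 α9k1-naive library. Runx2 was lower with α9k1 without crush, with a log2 difference of -1.07 ± 0.38 (adjusted p = 0.0543), and of -0.67 (adjusted p = 0.0682) without covariates. With the covariates this call was lost without α9k1-naive replicate 6, the lowest library at 1.25, when the difference was -0.57 (adjusted p = 0.482). Without covariates it was lost without that library or without GFP-naive replicate 2, 3 or 5 or α9k1-naive replicate 4 (adjusted p of 0.107 to 0.148). Between α9k1-crush and GFP-crush the fitted value of Runx2 was -1.38 ± 0.82 (adjusted p = 0.647) with covariates and -0.71 ± 0.33 (adjusted p = 0.081) without. The latter fell to -0.38 (adjusted p = 0.31) without GFP-crush replicate 1, and the call was also lost without GFP-crush replicate 2 or 3 or α9k1-crush replicate 1 or 4.

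The distance between Runx3 and Runx1 within a library does not depend on the scaling of that library. Runx3 minus Runx1 was -2.30 ± 0.59 (SD, n = 5) in GFP-naive, -2.64 ± 0.28 (n = 6) for α9k1-naive, -0.94 ± 0.64 (n = 4) for GFP-crush and -0.17 ± 0.35 (n = 4) in α9k1-crush. The highest naive library was at -1.56 and the lowest crush library at -1.45, so the crush groups lay above the naive groups in every library. The pair was chosen after its values were seen, and no test is given for it. As the values are normalized for length only approximately, the change between groups can be read and the level of 0 cannot.

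**Figure D2:**
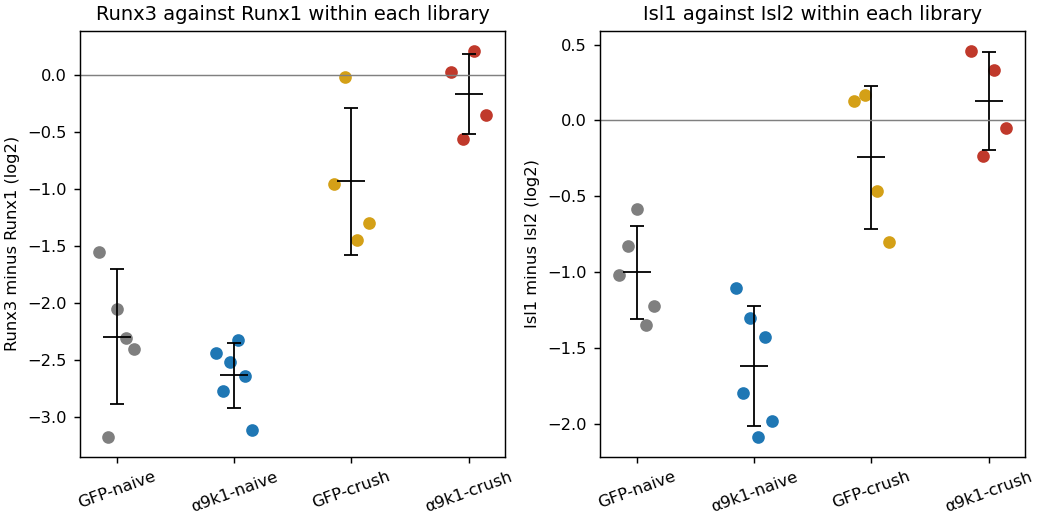
Difference of deposited log2 values within each library (y axis) for Runx3 minus Runx1 (left) and Isl1 minus Isl2 (right) in the 4 groups (x axis), with points for libraries and the mean ± SD in black. For Runx3 minus Runx1 every crush library is above every naive library, and α9k1-crush is centred at -0.17.

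Isl1, the LIM-homeodomain factor that all sensory neurons express as they form, was higher after crush. Its values were 5.68, 5.45, 5.97, 5.15 and 5.36 in GFP-naive, 4.75 to 5.73 (median 5.28) in α9k1-naive, 6.32, 6.17, 5.75 and 5.99 in GFP-crush and 6.71, 6.36, 6.63 and 6.20 in α9k1-crush. The α9k1-crush libraries were all above the naive libraries, and GFP-crush overlapped GFP-naive through 1 library of each. In GFP neurons Isl1 rose by 0.72 ± 0.22 (adjusted p = 0.0398) with the covariates and by 0.54 (adjusted p = 0.0494) without them. Leaving out GFP-crush replicate 1 or GFP-naive replicate 2 ended this call (adjusted p = 0.11 and 0.133), and without covariates it ended when GFP-crush replicate 1 or 2 or GFP-naive replicate 4 was left out (adjusted p = 0.148, 0.108 and 0.122). The summed level of the 10 neuronal markers was at a log2 of 13.3 to 13.6 in GFP-naive, 12.6 to 12.9 in α9k1-naive and 13.8 to 14.3 in both crush groups, so it was also higher after crush, but not for each marker, as Syt1 was lower in GFP-crush than GFP-naive (-1.05, adjusted p = 0.00474). The part of this sum in the result for Isl1 was not tested.

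In α9k1 neurons the crush effect on Isl1 was 0.89 ± 0.39 (adjusted p = 0.207) with and 1.19 ± 0.18 (adjusted p = 3.75e-05) without covariates, and the former passed when GFP-naive replicate 4 was left out (1.21, adjusted p = 0.0793). The difference between the crush effects in α9k1 and GFP neurons was 0.16 (adjusted p = 0.917) with and 0.65 (adjusted p = 0.0672) without covariates. Without crush, the fitted difference of Isl1 with α9k1 was -0.52 ± 0.22 (adjusted p = 0.103) with and -0.24 ± 0.17 (adjusted p = 0.287) without covariates. The former lay between -0.75 and -0.28 when 1 library was left out, and passed without GFP-naive replicate 3 or 4, α9k1-naive replicate 3 or α9k1-crush replicate 1 (adjusted p = 0.0686, 0.0311, 0.0796 and 0.0891). Between the crush groups it was -0.36 with and 0.42 without covariates (adjusted p = 0.883 and 0.091).

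Isl2, its close relative, did not follow Isl1. It was at 6.71, 6.27, 6.56, 6.50 and 6.58 in GFP-naive, 6.44 to 7.28 (median 6.88) in α9k1-naive, 6.19, 6.01, 6.21 and 6.79 in GFP-crush and 6.25, 6.59, 6.29 and 6.25 in α9k1-crush. No comparison of Isl2 passed with the covariates, the nearest being α9k1-naive over GFP-naive at 0.36 ± 0.19 (adjusted p = 0.196). Without covariates it was called higher in α9k1-naive than GFP-naive by 0.38 (adjusted p = 0.0721) and lower in α9k1-crush than α9k1-naive, at -0.56 (adjusted p = 0.0121), where the value with covariates was -0.19 (adjusted p = 0.813). Isl1 minus Isl2 within a library was -1.0 ± 0.31 (SD, n = 5) in GFP-naive, -1.62 ± 0.40 (n = 6) for α9k1-naive, -0.24 ± 0.47 (n = 4) for GFP-crush and 0.13 ± 0.32 (n = 4) in α9k1-crush, a description with no test.

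Prdm12, a regulator of the nociceptor lineage, was lower after crush. It was at 6.03, 5.97, 5.85, 5.69 and 6.27 in GFP-naive, 5.93 to 6.50 (median 6.28) in α9k1-naive, 5.44, 5.21, 5.66 and 5.69 in GFP-crush and 4.76, 5.65, 5.14 and 5.72 in α9k1-crush. All crush libraries were below all α9k1-naive libraries, and the highest GFP-crush library was level with the lowest GFP-naive library to 2 decimals. In α9k1 neurons Prdm12 fell by 1.21 ± 0.40 on the log2 scale after crush (adjusted p = 0.0907), and the fit without covariates gave -0.95 (adjusted p = 0.000195). The call with covariates was kept in 7 of the 19 fits that left out 1 library, in which the change lay between -1.44 and -1.02. In GFP neurons the change was -0.49 ± 0.22 (adjusted p = 0.15) with and -0.46 (adjusted p = 0.0698) without covariates.

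Tlx3, a homeobox factor of sensory and dorsal horn neurons, was highest in GFP-crush. Its values were 5.34, 4.97, 5.23, 5.26 and 5.61 in GFP-naive, 4.99 to 5.29 (median 5.10) in α9k1-naive, 5.86, 5.60, 5.52 and 5.81 in GFP-crush and 4.89, 5.08, 5.35 and 5.28 in α9k1-crush. GFP-crush lay above both α9k1 groups in every library and overlapped GFP-naive through 1 library of the latter. Crush raised Tlx3 in GFP neurons by 0.53 ± 0.15 (adjusted p = 0.0281), and by 0.41 (adjusted p = 0.0237) without covariates. GFP-naive replicate 2, the lowest of its group at 4.97, decided the call with the covariates, since without it the change was 0.43 (adjusted p = 0.133).

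In α9k1 neurons the crush effect on Tlx3 was 0.06 ± 0.27 (adjusted p = 0.929). Tlx3 in α9k1-crush relative to GFP-crush was fitted at -0.68 ± 0.32 (adjusted p = 0.56) with covariates and -0.55 ± 0.13 (adjusted p = 0.00226) without, and the exact permutation test gave p = 0.0286, which is the smallest that 4 against 4 libraries allow. The difference between the crush effects was -0.47 with a 95% interval of -1.12 to 0.18.

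Prrxl1, a paired homeobox gene of sensory neurons and their spinal targets, was nearly level. Its values lay between 5.25 and 5.66 in GFP-naive, 5.25 and 5.57 in α9k1-naive, 4.85 and 5.27 in GFP-crush and 5.06 and 5.95 in α9k1-crush. No comparison passed with the covariates, and without them it was lower in GFP-crush than GFP-naive, at -0.37 (adjusted p = 0.0832), and higher in α9k1-crush than GFP-crush by 0.36 (adjusted p = 0.0634). With covariates these values were -0.27 (adjusted p = 0.343) and 0.05 (adjusted p = 0.985). The calls of Prrxl1 without covariates were kept in 13 and 15 of the 19 fits that left out 1 library, and the second value fell to 0.19 (adjusted p = 0.277) without α9k1-crush replicate 3.

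Pou4f1, the Brn3a factor of nearly all sensory neurons, had no called change with the covariates. It lay between 4.19 and 5.04 in GFP-naive, 3.87 and 4.92 in α9k1-naive, 4.37 and 4.80 in GFP-crush and 4.85 and 5.15 in α9k1-crush. Every α9k1-crush library was above every GFP-crush library (exact permutation p = 0.0286, adjusted to 0.0847). The fitted crush effect in α9k1 neurons was -0.43 ± 0.38 (adjusted p = 0.559) with covariates and 0.53 ± 0.20 (adjusted p = 0.034) without, so its direction turned. The same held between the crush groups (-0.24, adjusted p = 0.928, and 0.43, adjusted p = 0.105) and for the interaction (-0.20, adjusted p = 0.891, and 0.64, adjusted p = 0.093), where the call without covariates was kept in 5 of the 19 fits that left out 1 library.

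Pou4f2 varied widely between libraries. It was at 2.19, 2.62, 1.77, 2.90 and 2.73 in GFP-naive, 0.23 to 2.50 (median 1.39) in α9k1-naive, 3.36, 1.82, 1.89 and 2.99 in GFP-crush and 2.38, 1.28, 2.51 and 2.78 in α9k1-crush. Without crush it was lower with α9k1, at -1.34 ± 0.54 (adjusted p = 0.0895) and -1.13 (adjusted p = 0.0276) without covariates. With the covariates the call held in 8 of the 19 fits that left out 1 library, and without them in all 19. In α9k1 neurons the crush effect on Pou4f2 was 1.89 ± 0.97 (adjusted p = 0.274) with and 0.93 ± 0.41 (adjusted p = 0.0702) without covariates. Between the crush groups its sign turned, from 0.42 (adjusted p = 0.956) to -0.28 (adjusted p = 0.636).

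**Figure D3:**
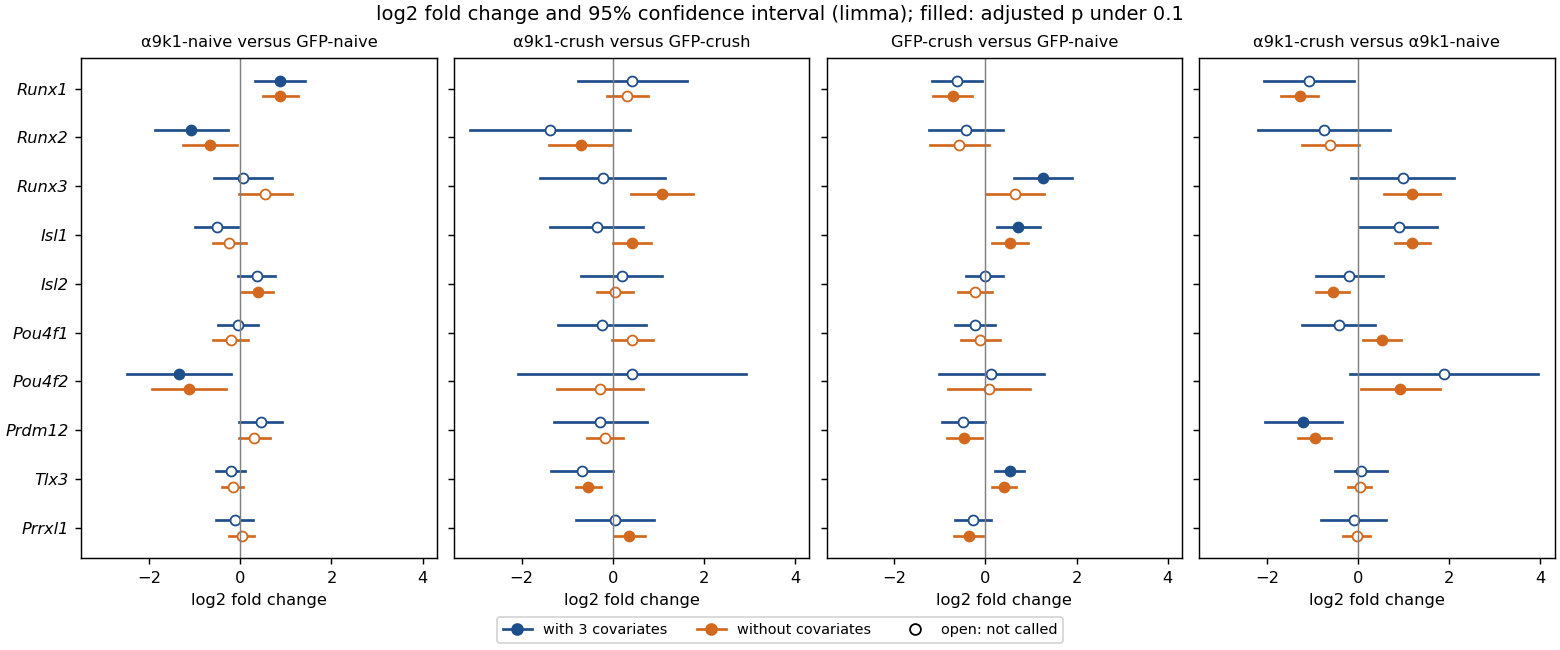
Log2 fold change (x axis) with its 95% confidence interval for the 10 factors (y axis) in the 4 comparisons, from the limma fit with 3 covariates (blue) and without covariates (orange), filled where the adjusted p was under 0.1. Intervals with covariates are widest in the 2 comparisons that hold α9k1-crush, and Runx3 changes sign between the fits in α9k1-crush versus GFP-crush.

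Counted over the 10 genes, 1 was called higher and 2 lower in α9k1-naive than GFP-naive, where 29.1% of all genes were called. No member was called between α9k1-crush and GFP-crush, where 0.911% of all genes were, and none of the 10 had an unadjusted p under 0.05 in limma. Between GFP-crush and GFP-naive 3 were called higher and none lower, with 23.1% of all genes called. Between α9k1-crush and α9k1-naive Prdm12 alone was called, with 9.74% of all genes. No member was called for the interaction, where 2.2% of all genes were, and none had an unadjusted p under 0.05. The count of members called was near the background in each comparison.

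Without covariates the members called were 2 higher and 2 lower, 3 higher and 2 lower, 2 higher and 3 lower, 4 higher and 3 lower, and for the interaction 2 higher and none lower, against 46%, 58%, 31.1%, 55.6% and 39.4% of all genes. Beyond those described above, the calls without covariates that were not kept in all 19 fits leaving out 1 library were Isl2 between the naive groups (13 kept), Isl1 between the crush groups (12) and for the interaction (13), Prdm12 with crush in GFP neurons (14) and Pou4f2 with crush in α9k1 neurons (14). The groups did not overlap for Runx1 between α9k1-naive and GFP-naive (21.7% of all genes), for Pou4f1 and Tlx3 between α9k1-crush and GFP-crush (40.8%), for Runx1 and Prdm12 between GFP-crush and GFP-naive (19.8%), and for Runx1, Runx3, Isl1 and Prdm12 between α9k1-crush and α9k1-naive (33.4%). The median log2 fold change of the 10 genes was -0.09, -0.23, -0.13 and -0.15 in these comparisons with the covariates, and that of all genes -0.08, 0.01, -0.08 and 0.00.

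Across the 19 libraries the deposited values of Runx3 and Isl1 rose together (r = 0.70), and those of Prdm12 and Isl1 ran opposite (r = -0.78), as did Runx1 and Isl1 (r = -0.65). Runx1 and Prdm12 had r = 0.71. Once each group mean was removed, r was 0.51 for Runx3 and Isl1, -0.23 for Prdm12 and Isl1, 0.03 for Runx1 and Isl1 and 0.02 for Runx1 and Prdm12, so that for Runx1 the relation lay between groups. These points share libraries and groups and are given as a description. The genes with the pattern most like Runx1 were Cyp51 (r = 0.94), an enzyme of sterol synthesis, Pdlim5 (0.94) and Fam160a2 (0.94). Those nearest to Runx3 were Mtmr7 (0.90), Osbpl1a (0.88) and Gpr180 (0.88), and those nearest to Isl1 were Klhl17 (0.94), Sfxn3 (0.93) and Pgm2 (0.93). For Prdm12 they were Tusc3 (0.91), Sri (0.90) and Mal2 (0.89), and for Tlx3 Tyk2, Ndn and Ifi27l2b (0.86 each).

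The nearest gene reached 0.93 for Isl2 (Plcb3, followed by Rgs3 and Ppp1r2-ps4 at 0.91), 0.88 for Pou4f1 (Jazf1, then Pus1 at 0.83 and Atrnl1 at 0.82), 0.87 for Pou4f2 (Kifc2, then Gm13019 at 0.86 and Ddx52 at 0.84), 0.80 for Prrxl1 (Ankrd24, then Ebf1 at 0.77 and Adcy3 at 0.76) and 0.78 for Runx2 (Gm4076, then Rftn2 and Rnpc3 at 0.75).

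The partners of the Runx proteins changed in both directions. Cbfb, the subunit that all Runx factors share, was lower in α9k1-naive than GFP-naive, at -0.76 ± 0.22 (adjusted p = 0.0226), and higher in α9k1-crush than α9k1-naive by 1.31 ± 0.39 (adjusted p = 0.0658). Its group means were 6.52 ± 0.13 (SD, n = 5) in GFP-naive, 5.98 ± 0.24 (n = 6) for α9k1-naive, 6.55 ± 0.39 (n = 4) for GFP-crush and 7.27 ± 0.37 (n = 4) in α9k1-crush. The Groucho corepressor Tle2 was lower in α9k1-naive (-1.09, adjusted p = 0.0161) and in GFP-crush (-0.84, adjusted p = 0.0694) than GFP-naive, where Tle3 was lower (-0.50, adjusted p = 0.0697) and Aes higher (0.43, adjusted p = 0.0283). Of the 8 partners with a row these were all that passed, which is 0 higher and 2 lower, 1 higher and 2 lower, and 1 higher and 0 lower in the 3 comparisons named, where 29.1%, 23.1% and 9.74% of all genes were called. Between the crush groups none of the 8 passed with covariates, and 5 were higher and 1 lower without them, where 58% of all genes were called. For the interaction these numbers were 0 (2.2% of all genes called), and 4 higher and 1 lower (39.4%).

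Of the 9 LIM domain partners with a row, Lmo4, an LIM-only protein that competes for Ldb cofactors, was lower in 3 comparisons. Its group means fell from 7.65 ± 0.10 (n = 5) in GFP-naive to 6.63 ± 0.14 (n = 6) for α9k1-naive, 6.67 ± 0.33 (n = 4) for GFP-crush and 5.23 ± 0.34 (n = 4) in α9k1-crush. The fitted changes were -0.72 (adjusted p = 0.00526) with α9k1 alone, -1.14 (adjusted p = 0.000482) with crush in GFP and -1.58 (adjusted p = 0.00672) with crush in α9k1 neurons. Ldb2, a cofactor of LIM-homeodomain proteins, fell with crush in GFP (-0.83, adjusted p = 0.039) and in α9k1 neurons (-1.55, adjusted p = 0.0588). Rlim, the ubiquitin ligase of Ldb cofactors, was higher in α9k1-naive than GFP-naive (1.06, adjusted p = 7.52e-05) and lower in α9k1-crush than α9k1-naive (-1.01, adjusted p = 0.0301). Ssbp2 was the remaining call, at 0.40 (adjusted p = 0.0626) in α9k1-naive over GFP-naive. Between the crush groups 0 of the 9 passed with covariates (0.911% of all genes called), and 3 were higher and 3 lower without them (58%).

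Of 40 other factors of sensory lineage, 19 had a row. In α9k1-naive over GFP-naive 4 were higher and 5 lower (29.1% of all genes called), among them Etv4 (0.98, adjusted p = 0.00366) on the higher side and Foxs1 (-2.11, adjusted p = 5.44e-06) and Eya2 (-1.07, adjusted p = 0.063) on the lower side. After crush in GFP neurons 2 were higher, Shox2 (1.09, adjusted p = 0.0701) and Tlx2 (0.48, adjusted p = 0.0969), and 7 lower (23.1% of all genes called), led by Foxs1 (-1.44, adjusted p = 0.000755) and Rora (-1.29, adjusted p = 0.00262). After crush in α9k1 neurons Eya2 was higher (2.65, adjusted p = 0.0405), and Etv4 (-2.02, adjusted p = 0.00742) and Ehmt2 (-1.12, adjusted p = 0.0575) were lower. For the interaction Foxs1 was called (1.90, adjusted p = 0.0536). Between the crush groups 1 was higher and 0 lower with covariates (0.911% of all genes called). Without covariates 6 were higher and 3 lower between the crush groups and 6 higher and 1 lower for the interaction, against 58% and 39.4% of all genes called.

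The genes that mark the neuron classes served by Runx3 and Runx1 were counted in the same fit. Of 9 proprioceptor and mechanoreceptor genes, α9k1 without crush raised 2 and lowered 3, where 29.1% of all genes were called. The heavy neurofilament Nefh (-2.32 ± 0.25, adjusted p = 1.17e-05), the calcium-binding protein Necab2 (-1.86, adjusted p = 6.9e-05) and parvalbumin, Pvalb (-1.46, adjusted p = 0.0399), were lower, and Spp1 (1.22, adjusted p = 0.00157) and the BDNF receptor Ntrk2 (0.49, adjusted p = 0.0421) were higher. After crush in GFP neurons Pvalb (1.74, adjusted p = 0.0258) and Nefh (0.79, adjusted p = 0.0498) were higher and Ntrk2 lower (-1.16, adjusted p = 0.000424), where 23.1% of all genes were called. After crush in α9k1 neurons 3 were higher, Pvalb (2.97 ± 0.86, adjusted p = 0.0558), Nefh (2.79 ± 0.45, adjusted p = 0.00376) and Necab2 (1.96, adjusted p = 0.0179), and 2 lower (9.74% of all genes called), Spp1 (-1.50, adjusted p = 0.0484) and Ntrk2 (-1.16, adjusted p = 0.0301).

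For Nefh and Necab2 the crush effect was larger in α9k1 than in GFP neurons by 2.0 (adjusted p = 0.0848) and 2.09 (adjusted p = 0.0628), and no other gene of the list was called for the interaction with covariates (2.2% of all genes called); without them 4 were higher and 1 lower (39.4% of all genes called). The medians of the list were -0.54, -0.11, 0.05 and 0.51 in α9k1-naive over GFP-naive, α9k1-crush over GFP-crush, GFP-crush over GFP-naive and α9k1-crush over α9k1-naive. Between the crush groups none of its genes was called with covariates, and 2 were higher and 0 lower without them, where 58% of all genes were called. Without covariates the medians between the crush groups and for crush in α9k1 neurons were 0.22 and 1.16, with 5 higher and 2 lower in the latter (55.6% of all genes called).

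Of 16 genes of non-peptidergic nociceptors and pruriceptors, 1 was higher and 0 lower in α9k1-naive than GFP-naive, the itch peptide Nppb (1.62 ± 0.27, adjusted p = 0.000591), where 29.1% of all genes were called; without covariates 3 were higher and 3 lower (46% of all genes). After crush in α9k1 neurons Nppb (-2.24, adjusted p = 0.0159) and the irritant channel Trpa1 (-3.92 ± 1.11, adjusted p = 0.0523) were lower and no gene was higher, where 9.74% of all genes were called. In GFP neurons after crush 2 were higher and 2 lower, where 23.1% of all genes were called. Among them the ATP receptor P2rx3 (-0.82, adjusted p = 0.0858) was lower and Mrgprb4 (1.68, adjusted p = 0.0924) and Mrgprb5 (1.51, adjusted p = 0.0984) higher. Without covariates 0 of the list were higher there and 2 lower (31.1% of all genes called), so the calls of Mrgprb4 and Mrgprb5 were not kept. Mrgprb4 and Mrgprb5 are members of a multigene family in which reads can be split. Of 7 genes of peptidergic nociceptors, Trpv1, the capsaicin receptor, was higher in α9k1-naive than GFP-naive by 1.16 (adjusted p = 0.067), as was Prph by 0.34 (adjusted p = 0.0664), and Trpv1 was lower after crush in α9k1 neurons (-2.65 ± 0.77, adjusted p = 0.0588). No gene of these 2 lists was called between the crush groups with covariates. Without them 3 of the non-peptidergic list were higher and 4 lower, and 1 of the peptidergic list was higher and 1 lower (58% of all genes called), and for crush in α9k1 neurons 1 was higher and 6 lower, and 0 higher and 4 lower (55.6%). The medians in the 4 comparisons were 0.05, -0.44, -0.35 and -0.57 for the non-peptidergic list and 0.60, -0.27, -0.40 and -1.29 for the peptidergic list.

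Runx1, Runx2 and Runx3 are also expressed outside of neurons, in blood, bone and lymphoid lineages, so the markers of other cells are given beside them. The summed level of the 10 macrophage markers with a row, of 14, was at a log2 of 7.81 to 8.32 in GFP-naive, 9.09 to 9.67 in α9k1-naive, 9.51 to 10.1 in GFP-crush and 9.23 to 10.1 in α9k1-crush. It was thus higher in α9k1-naive, where Runx1 was high, and also in both crush groups, where Runx1 was not. For the 4 lymphocyte markers with a row, of 12, it was 7.20 to 9.27, 4.18 to 6.87, 5.61 to 6.00 and 5.01 to 5.87, lower in α9k1-crush, where Runx3 was high, than GFP-naive. This sum followed the immunoglobulin gene Igkc, at a mean of 7.76 in GFP-naive and 3.13 in α9k1-crush. Cd4, of the same list, was instead highest in α9k1-crush, at 3.87 ± 0.56 (SD, n = 4). It was at 2.24 ± 0.21 (n = 5) in GFP-naive, 3.16 ± 0.52 (n = 6) for α9k1-naive and 2.98 ± 0.24 (n = 4) for GFP-crush. Among the macrophage markers, the means of Csf1r (4.14), Adgre1 (3.43), Ptprc (3.07) and Lyz2 (7.77) were also highest in α9k1-crush. Those of Aif1, Cd68, C1qa, C1qb, C1qc and Tyrobp were highest in GFP-crush. Of the lymphocyte list, Cd3e, Cd3g, Cd8a, Cd79a, Cd79b, Gzmb and Prf1 were among those with no row. Of the 9 endothelial cell and fibroblast markers, the 5 with a row were Col1a1, Col1a2, Dcn, Lum and Pdgfrb, and the endothelial markers Pecam1, Cdh5 and Kdr had none, so that endothelial cells were not assessed. The sum of the 5 was 9.20 to 9.53, 6.52 to 8.08, 7.86 to 8.19 and 7.45 to 8.00, highest in GFP-naive, as was the median of Runx2. The part of these cells in the results of the Runx genes was not tested.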

How the data were processed

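The labels assigned each of the 19 libraries to its group, and the 10 genes and all lists were chosen with earlier results of these data known. According to the methods of the study and the labels, alignment by the authors used STAR and the mm10 mouse build, library metrics came from Picard, and Salmon gave the counts per gene. The authors removed genes with few reads, and the deposited log2 values were normalized by them with cqn for length and depth; the counting error of single values therefore cannot be given, and the SD between replicates includes it. The deposited library metrics hold counts of reads and bases. The authors also deposited metrics as fractions, as percentages (AT and GC dropout) and as ratios of coverage. The expression table holds no gene names, so each row took the name in the same row of the deposited gene table, which has as many rows; this order was checked through Fermt1, which ranked 1 of 12629 by the mean difference of α9k1 and GFP libraries. That table also holds the authors' own fold changes and p-values, which were not used.

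One limma fit (limma 3.58.1, R 4.3.3) took all 19 libraries, 4 group means and the first 3 principal components of 48 scaled library metrics, with Benjamini-Hochberg adjusted p under 0.1 over 12629 genes. The batch term of the study's model was not in the tables used here. Exact permutation tests (2-sided) took the deposited values. The named genes are the 10 members, Fermt1 and Itga9, from each list up to 2 largest and 2 smallest called changes (all where 5 or fewer were called), and the 3 genes with the highest Pearson r to each member. Some genes that this rule names are not reported here. Promoters are from RefSeq (GRCm38.p6) and gene models from GENCODE. All 10 genes matched by symbol. The alternatives were no covariates, the first component only, the 2 compared groups only, removal of the 25% lowest genes, quantile normalization, median centring, array weights, a replicate block and leaving out each library. The fit code was tested on simulated data. Python 3.11.15, pandas 2.3.3, numpy 2.4.6 and matplotlib 3.10.9 were used.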

Additional observations from a re-analysis of the deposited data

Results flagged for a closer look

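In α9k1-crush, replicate 4 was far below the other 3 libraries for Runx3, at 2.87 against 3.80 for the next library. In the same group, replicate 2 was far above the others for Isl2, at 6.59 against 6.29. Without replicate 2 no call of Isl2 changed in the fit with covariates, where the difference from α9k1-naive was -0.23 (adjusted p = 0.764). Dixon's gap test was run on 40 groups of values, and chance alone flags about 1 in 20 groups, so 2 of 40 is the number that chance gives.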

How the results depend on the processing

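Of the values of single genes under alternatives other than leaving out a library, 296 kept their direction and side of the threshold, 29 newly passed it, 10 no longer passed it and 40 turned direction; when 1 library was left out these numbers were 1243, 11, 93 and 40. The cause of the changes was not tested. Without covariates the calls numbered 5 for α9k1-crush over GFP-crush (0 with them), 5 between GFP-crush and GFP-naive (3), 7 between α9k1-crush and α9k1-naive (1) and 2 for the interaction (0). With the first component only these counts were 1 between the crush groups, 7 in α9k1 neurons and 2 for the interaction, and 5 between the naive groups (3). In fits of only the 2 groups compared 1 gene was called for crush in GFP and 0 in α9k1 neurons, and with array weights 2 were called in the latter. Leaving out each library gave 1 to 4 calls for crush in GFP and 0 to 2 in α9k1 neurons.

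Without covariates the log2 fold change turned between the crush groups for Runx3 (1.08), Isl1 (0.42), Pou4f1 (0.43) and Pou4f2 (-0.28), between the naive groups for Prrxl1 (0.026), for crush in α9k1 neurons for Pou4f1 (0.53), and for the interaction for Runx3 (0.54) and Pou4f1 (0.64). With the first component only it turned between the crush groups for Runx3 (0.60), Isl1 (0.37), Isl2 (-0.22), Pou4f1 (0.39) and Pou4f2 (-0.11), between the naive groups for Prrxl1 (0.026), for crush in GFP neurons for Pou4f2 (-0.035), in α9k1 neurons for Pou4f1 (0.51) and Tlx3 (-0.0083), and for the interaction for Runx2 (0.10), Runx3 (0.053) and Pou4f1 (0.60). In fits of only the 2 groups it turned for Pou4f1 (0.081) between the naive groups, for Isl1 (0.064), Pou4f1 (0.99) and Prdm12 (0.90) between the crush groups and for Isl2 (0.0090) with crush in GFP neurons. Quantile normalization turned Pou4f1 between the naive groups (0.0069) and Prrxl1 between the crush groups (-0.048), median centring turned Prrxl1 there (-0.035) and Isl2 with crush in GFP neurons (0.12), and array weights turned Prrxl1 between the crush groups (-0.17).

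Libraries with the same replicate number did not deviate together: r was -0.27 to 0.15 over 25 such pairs, of which 4 were over 0.1, so the numbers were not taken as a pairing. With a replicate block no gene was called for crush in α9k1 neurons (0), and the value turned there for Runx2 (0.65) and Tlx3 (-0.11), between the crush groups for Runx2 (0.46), Runx3 (0.71), Isl1 (0.36), Pou4f2 (-1.50) and Prrxl1 (-0.46), and for the interaction for Runx1 (0.39), Runx2 (1.19) and Runx3 (0.52). The block left 7 residual degrees of freedom.

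Leaving out 1 library turned the direction within these ranges. Between the naive groups they were -0.12 to 0.22 for Runx3, -0.30 to 0.067 for Pou4f1 and -0.36 to 0.0067 for Prrxl1. Between the crush groups they were -0.22 to 0.80 for Runx1, -0.55 to 0.22 for Runx3, -0.057 to 0.41 for Isl2, -0.46 to 1.09 for Pou4f2 and -0.40 to 0.32 for Prrxl1. For crush in GFP neurons they were -0.18 to 0.061 for Isl2 and -0.22 to 0.42 for Pou4f2, and in α9k1 neurons -0.43 to 0.065 for Isl2, -0.061 to 0.30 for Tlx3 and -0.33 to 0.20 for Prrxl1. For the interaction they were -0.69 to 0.057 for Runx2, -0.66 to 0.044 for Runx3, -0.37 to 0.62 for Isl1, -0.42 to 0.10 for Isl2 and -0.21 to 0.39 for Prrxl1.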
